A study of Mus musculus with 20 samples.

Results

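Dpp4, Pi16, Cd55, Anxa3, Cd248, Opcml, Limch1, Efhd1, Stmn4 and Creb5 are surface proteins and marker transcripts of the progenitors that lie in the connective tissue sheets between fat lobules. They were taken by gene symbol from a table of RNA sequencing values, in which all 10 were found among 54304 genes and all 10 stayed among the 17435 genes tested. The 20 libraries came from stromal cells of gonadal white fat of male mice, sorted as PDGFRβ-positive cells without CD45 (blood cells) and CD31 (endothelium). The LY6C-positive cells were called fibro-inflammatory progenitors (FIPs), and those negative for LY6C and for CD9 were called adipogenic precursor cells (APCs). The 4 groups, each of 5 libraries, were FIPs from Mural-Zfp423 transgenic mice, FIPs from control mice, APCs from Mural-Zfp423 transgenic mice and APCs from control mice. All mice were 8 weeks old by the labels, lived at 30 °C and had eaten food with 60% of its energy as fat for 1 month. Each library held the pooled RNA of 2 mice, from 10 mice per genotype. If no mouse entered 2 pools of the same population, every mouse stood behind a FIP pool and an APC pool. The labels do not tie pools to mice, and the main fit treated the 20 libraries as independent. The line is named for mural cells, which wrap small vessels, and the labels do not name the promoter that drives the transgene.

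Interstitial progenitors are fibroblast-like cells of the fascia-like reticulum of fat. They are known for the surface peptidase DPP4 and the secreted peptidase inhibitor PI16, and in transplantation work in mice they give rise to committed preadipocytes, which lie within the lobules and carry adipogenic regulators such as PPARγ. FIPs of visceral fat are marked by LY6C and are known for poor adipogenic capacity and for secreting inflammatory and matrix products, whereas APCs differentiate readily into fat cells.

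Values are log2 CPM, the reads of a gene scaled to its library's total, to which every level below refers unless another scale is named. The step of 1 read, visible in the low values, put the depth at 6.6 to 8.5 megareads a library, and between 15972 and 17282 genes exceeded 1 CPM, the level at or below which the table lists 0. Zfp423, the gene the transgene carries, stood at 5.53 ± 0.04 in FIPs labelled transgenic and 5.47 ± 0.12 in control FIPs (SD, n = 5 each), and at 4.70 ± 0.27 in APCs labelled transgenic and 4.97 ± 0.17 in control APCs (SD, n = 5 each). Neither difference passed the test (limma, adjusted p = 0.932 in FIPs and adjusted p = 0.108 in APCs), so these libraries are called by their label throughout. Pdgfra and Pdgfrb, which mark adipose stromal cells, averaged between 8.94 and 9.44 across the groups. Pecam1, which encodes CD31, was not near 0, with group means between 5.98 and 6.61, and Ptprc, which encodes CD45, had group means between 3.66 and 4.69. Over the tested genes other than the 10 described here, replicate 1 of the APCs labelled transgenic lay nearer to the control APCs (root mean square distance 0.284 log2 units) than to its own group (0.372). Replicate 1 of the control APCs lay nearer to the APCs labelled transgenic (0.344) than to its own group (0.374), and replicate 2 of the control APCs lay at almost equal distance (0.279 and 0.282). Differences between genotypes in APCs are therefore also given without both replicates 1, where Zfp423 passed as lower in APCs labelled transgenic (-0.38, adjusted p = 0.00442). In sorted bulk RNA, fewer cells of a type and less RNA per cell cannot be told apart.

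Promoter sequence is shown for the genes whose values the comparisons below turn on: Dpp4, Pi16 and Cd55, which are used to recognise the cells, the neighbouring copy Cd55b, and Creb5, the transcription factor among the 10 and the one that passed in the direction opposite to the others between genotypes in APCs. Each run is the 250 bases before a RefSeq start site (GRCm38.p6), 5′ to 3′ on the gene's strand. Capitals mark letters of any of 8 motifs searched on both strands: TGACGTCA, the full cyclic AMP response element; its shorter core TGACG, which lies inside it; TGANTCA, the AP-1 site; GGGCGG, the GC box; CCAAT, which binds NF-Y; TATAAA, the TATA box; GGAATG, the TEAD site; and CCCNNGGG, the EBF site. The windows lie at chr2:62412232-62412481 (minus strand, Dpp4), chr17:29318632-29318881 (plus strand, Pi16), chr1:130462745-130462994 (minus strand, Cd55), chr1:130423044-130423293 (minus strand, Cd55b) and chr6:53287053-53287302 (plus strand, Creb5, the first of 2 start sites).
Dpp4: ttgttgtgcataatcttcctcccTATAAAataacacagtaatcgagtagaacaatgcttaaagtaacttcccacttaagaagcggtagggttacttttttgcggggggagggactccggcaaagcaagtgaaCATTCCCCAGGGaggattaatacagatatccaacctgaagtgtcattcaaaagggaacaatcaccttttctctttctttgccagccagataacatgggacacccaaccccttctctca
Pi16: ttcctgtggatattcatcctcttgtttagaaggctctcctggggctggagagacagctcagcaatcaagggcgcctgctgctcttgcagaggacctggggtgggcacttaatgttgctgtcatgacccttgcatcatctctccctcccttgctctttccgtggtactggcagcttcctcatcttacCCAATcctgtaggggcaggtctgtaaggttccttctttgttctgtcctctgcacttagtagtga
Cd55: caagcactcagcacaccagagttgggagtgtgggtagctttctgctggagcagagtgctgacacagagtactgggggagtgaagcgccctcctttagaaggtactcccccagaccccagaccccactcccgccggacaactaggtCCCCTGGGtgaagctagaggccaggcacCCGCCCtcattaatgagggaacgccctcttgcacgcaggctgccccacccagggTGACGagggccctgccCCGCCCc
Cd55b: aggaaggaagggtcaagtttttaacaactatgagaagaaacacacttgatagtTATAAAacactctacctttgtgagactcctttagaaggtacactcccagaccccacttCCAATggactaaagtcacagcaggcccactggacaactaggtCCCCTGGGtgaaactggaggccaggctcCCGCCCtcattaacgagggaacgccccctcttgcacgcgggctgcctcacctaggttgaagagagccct
Creb5: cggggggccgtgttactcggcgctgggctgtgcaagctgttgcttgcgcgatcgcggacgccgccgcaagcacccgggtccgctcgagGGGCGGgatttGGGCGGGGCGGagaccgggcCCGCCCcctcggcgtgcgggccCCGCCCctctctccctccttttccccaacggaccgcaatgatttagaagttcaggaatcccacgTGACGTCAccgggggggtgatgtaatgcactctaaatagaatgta

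Of the 10 genes, 7 matched the promoter table (Dpp4, Pi16, Cd55, Opcml, Limch1, Efhd1 and Creb5). The first Creb5 window held the full TGACGTCA 45 bases before the start site, a motif present in 1.546% of the 32851 promoter windows of this length in the table, and none of the other windows of the 10 genes held it. The same Creb5 window had 66.4% GC and an observed over expected CpG ratio of 1.02, both above the upper quartile of all windows (61.2% and 0.723). The Pi16 window, with 52.4% GC and a CpG ratio of 0.117, lay below the lower quartile of 0.167 for the CpG ratio. CCCNNGGG stood in the Cd55 window 105 bases and in the Dpp4 window 114 bases before the start site, against 11.82% of all windows. It also stood in the Cd55b window, 97 bases before the start site, and the Cd55 and Cd55b windows were 63.7% identical over 281 aligned positions. TATAAA was found for 2 of the 7 genes, Dpp4 and Limch1, against 12.37% of all windows, and GGGCGG for 4 of the 7, Cd55, Limch1, Efhd1 and Creb5, against 32.74%. A gene counted if any of its windows held the motif, and Limch1 had 3 windows and Creb5 2, whereas these shares are per window. The TATAAA of Limch1 was not in its first window and lay on the opposite strand, 76 bases before the start site. That of Dpp4 lay 227 bases before the start site. No motif of the 8 was present in the windows of all 7 genes. These matches are letters in a window, and occupancy was not measured.

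All 10 genes were higher in FIPs than in APCs, in mice labelled transgenic and in controls alike. The differences ranged between 1.04 and 4.74 log2 units in mice labelled transgenic (median 2.88) and between 0.93 and 4.31 in controls (median 2.68), while the median over all tested genes was -0.01 and -0.06. All 10 passed the test in each genotype (limma, adjusted p below 0.05), where 22.7% of all tested genes were called higher in FIPs labelled transgenic and 19.6% in control FIPs. Of the 17435 tested genes, 3313 were called lower in FIPs labelled transgenic and 4866 in control FIPs. The counts of lower genes in the lists below stand beside these. For all 10 the lowest FIP library exceeded the highest APC library, a separation found in 16.6% of tested genes in mice labelled transgenic and 14.6% in controls. The 10 genes were chosen with earlier results of these data known, so the shares over all genes give a scale and not a test. Under each alternative setting and each left-out library, all 10 stayed higher and past the threshold in both genotypes.

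**Figure D1:**
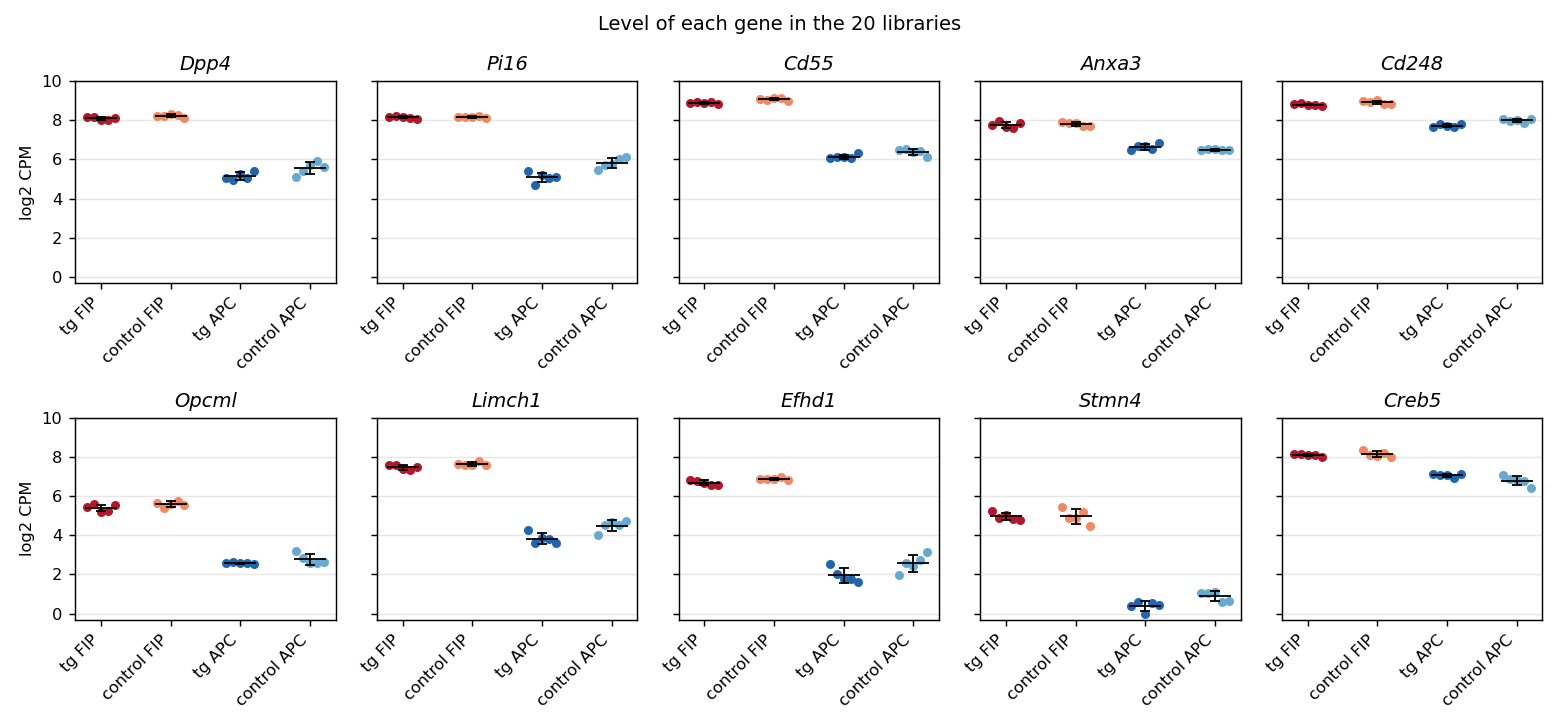
Level of each of the 10 genes (log2 CPM, vertical axis) in the 4 groups, 1 point per library, with the group mean as a horizontal line and the SD as the error bar (n = 5). FIP libraries lie above APC libraries in every panel, with the widest gaps for Efhd1 and Stmn4 and the narrowest for Cd248 and Creb5.

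Dpp4 encodes a membrane serine peptidase that clips N-terminal dipeptides from chemokines and incretins. Its level was 8.14, 8.17, 8.02, 8.02 and 8.11 in the 5 FIP libraries labelled transgenic and 5.04, 4.94, 5.28, 5.05 and 5.40 in the 5 APC libraries labelled transgenic. In control FIPs it was 8.21, 8.21, 8.33, 8.26 and 8.11, and in control APCs 5.08, 5.42, 5.73, 5.92 and 5.61. All FIP libraries lay between 8.02 and 8.33, and the APC libraries spread more widely, between 4.94 and 5.92. The difference was 2.95 (SE 0.11, adjusted p = 1.14e-14) in mice labelled transgenic, a 7.73-fold level, and 2.67 (SE 0.11, adjusted p = 6.51e-14) in controls, a 6.37-fold level. Its relatives and partners differed in both directions. Of 9 tested genes among DPP4-like peptidases, DPP4 partners and substrates, 2 were higher and 6 lower in control FIPs than in control APCs, with a median of -0.19, and 2 were higher and 4 lower in FIPs labelled transgenic. The higher genes were Prep (0.26 in control FIPs) and Dpp7 (0.18), both related peptidases, and Ada, which encodes the adenosine deaminase that binds DPP4, was lower (-0.80). Fap, the closest DPP4 relative and its chromosomal neighbour, was lower in FIPs of both genotypes, at 7.09 in FIPs labelled transgenic against 7.89 in APCs labelled transgenic (difference -0.80), and at 7.09 in control FIPs against 7.73 in control APCs (difference -0.65, adjusted p = 1.68e-06). Cxcl12, a chemokine that DPP4 cleaves, stood at 7.95 in control FIPs and 8.14 in control APCs (difference -0.19, adjusted p = 0.00141), and its difference in mice labelled transgenic was -0.01 (adjusted p = 0.880).

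Pi16 encodes a CAP-domain peptidase inhibitor that marks fibroblast progenitors across mouse tissues. The 5 FIP libraries labelled transgenic read 8.16, 8.22, 8.15, 8.11 and 8.08, and the 5 APC libraries labelled transgenic read 5.39, 4.70, 5.18, 5.04 and 5.08. Control FIPs read 8.14, 8.16, 8.18, 8.20 and 8.09, and control APCs read 5.45, 5.69, 5.79, 6.03 and 6.11. Pi16 was among the steadiest of the 10 genes in FIPs (SD 0.05 labelled transgenic and 0.04 control), with FIPs of both labels interleaved. The FIP to APC difference was 3.07 (SE 0.11) in mice labelled transgenic and 2.34 (SE 0.11) in controls. All 4 tested CAP relatives also passed in both genotypes, 3 higher and 1 lower in FIPs. Crispld1 was higher by 2.54 in FIPs labelled transgenic and by 2.08 in control FIPs, Pi15 and Glipr2 were higher by 0.67 and 0.54 in control FIPs, and Crispld2, a secreted relative, was lower (-1.02 in control FIPs).

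Cd55 encodes decay accelerating factor, a GPI-anchored protein that dismantles complement convertases and binds the adhesion receptor CD97. It stood at 8.86, 8.92, 8.90, 8.93 and 8.83 in FIPs labelled transgenic and 6.08, 6.11, 6.12, 6.08 and 6.31 in APCs labelled transgenic. Control FIPs had 9.09, 9.04, 9.13, 9.12 and 8.99, and control APCs had 6.48, 6.51, 6.36, 6.41 and 6.13. Its differences of 2.75 (SE 0.06) in mice labelled transgenic and 2.70 (SE 0.06) in controls were almost equal. The tandem copy Cd55b, which lies 16.02 kb away, differed by 3.47 in mice labelled transgenic and 3.39 in controls, with 5.37 ± 0.04 in FIPs labelled transgenic and 1.91 ± 0.24 in APCs labelled transgenic (SD, n = 5 each). Of the 100-base stretches of Cd55 transcripts, 4.187% also occur in Cd55b, so a small part of the reads of Cd55 is uncertain. The share was not computed for Cd55b, which has less annotated exon (1.675 kb against 4.853 kb) and a lower level, so its uncertain part may be larger. Other membrane complement regulators did not move as a block: of 8 tested, 3 were higher and 3 lower in FIPs labelled transgenic, and 2 were higher and 4 lower in control FIPs. Cd46 was lower in FIPs labelled transgenic (-0.83) and in control FIPs (-0.996), Cd59a was lower in control FIPs (-0.75) and had a difference of 0.04 in mice labelled transgenic (adjusted p = 0.890), and Adgre5, which encodes CD97, was lower, at 5.74 in control FIPs against 6.85 in control APCs.

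Cd248, or endosialin, is a transmembrane C-type lectin of fibroblasts and pericytes that binds fibronectin and collagens. It stood at 8.82, 8.86, 8.79, 8.80 and 8.73 in FIPs labelled transgenic, at 8.96, 8.92, 9.02, 8.85 and 8.85 in control FIPs, at 7.63, 7.81, 7.68, 7.65 and 7.80 in APCs labelled transgenic and at 8.07, 7.98, 8.00, 7.88 and 8.04 in control APCs. The 4 groups did not overlap one another except for the FIP labels, whose ranges touched at 8.85 to 8.86. The FIP to APC difference, 1.09 (SE 0.04) in mice labelled transgenic and 0.93 (SE 0.04) in controls, was among the smallest of the 10, and Cd248 was abundant in both populations. Of its 8 relatives and binding partners tested, 1 was higher and 2 lower in FIPs labelled transgenic, and 2 were higher and 4 lower in control FIPs. Fn1, which encodes fibronectin, was higher by 0.48 in FIPs labelled transgenic and 0.49 in control FIPs, Col4a1 was lower (-0.37 and -0.21), and Col1a1 had differences of 0.03 and 0.08 that did not pass.

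Opcml encodes a GPI-anchored cell adhesion protein of the IgLON family, best known from neurons. It read 5.42, 5.58, 5.18, 5.26 and 5.54 in FIPs labelled transgenic, 5.64, 5.40, 5.62, 5.76 and 5.55 in control FIPs, 2.58, 2.62, 2.57, 2.58 and 2.56 in APCs labelled transgenic and 3.20, 2.86, 2.57, 2.58 and 2.62 in control APCs. All 10 APC libraries lay far below the FIPs, and only replicate 1 of the control APCs exceeded 3. The differences were 2.81 (SE 0.11) in mice labelled transgenic and 2.83 (SE 0.11) in controls. Of its 4 tested IgLON relatives, 1 was lower in control FIPs (Lsamp, -0.75) and none was higher. Negr1 averaged 5.44 in control FIPs and 5.25 in control APCs (adjusted p = 0.0694), and Iglon5 averaged 4.98 in control FIPs and 4.99 in control APCs (adjusted p = 0.904). In FIPs labelled transgenic Negr1 was higher (0.27) and Iglon5 lower (-0.28) than in APCs labelled transgenic.

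Anxa3 encodes a calcium-dependent phospholipid-binding annexin. Its levels were 7.76, 7.96, 7.64, 7.58 and 7.84 in FIPs labelled transgenic, 7.90, 7.88, 7.86, 7.72 and 7.72 in control FIPs, 6.48, 6.68, 6.67, 6.51 and 6.83 in APCs labelled transgenic and 6.46, 6.55, 6.54, 6.46 and 6.47 in control APCs. Control APCs formed a narrow band, and APCs labelled transgenic spread from within it to above it. The differences between FIPs and APCs were 1.12 (SE 0.07) in mice labelled transgenic and 1.32 (SE 0.07) in controls. Of 9 other annexins tested, 3 were higher and 5 lower in FIPs labelled transgenic, and 2 were higher and 3 lower in control FIPs, with medians of -0.08 and -0.02. The 2 higher in controls were Anxa4 (0.47) and Anxa2 (0.31), and Anxa1 was lower (-0.13). In FIPs labelled transgenic Anxa8 was also higher (1.23), and in APCs labelled transgenic it was the annexin that fell (-1.28) relative to control APCs.

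Limch1 encodes a protein known from human cells to activate non-muscle myosin II. It had 7.57, 7.60, 7.37, 7.33 and 7.50 in FIPs labelled transgenic, 7.63, 7.58, 7.61, 7.80 and 7.61 in control FIPs, 4.25, 3.59, 3.87, 3.82 and 3.63 in APCs labelled transgenic and 4.03, 4.51, 4.66, 4.54 and 4.74 in control APCs. In APCs only the replicates 1 crossed between the labels. FIPs exceeded APCs by 3.64 (SE 0.12) in mice labelled transgenic and 3.15 (SE 0.12) in controls. Among its relative Lmo7 and the myosin II genes, 7 tested, 2 were higher and 3 lower in control FIPs. Myh10, the heavy chain of non-muscle myosin IIB, was higher by 1.25 in FIPs labelled transgenic and 1.13 in control FIPs, whereas Myh9, the IIA heavy chain, had differences of 0.02 and 0.04 that did not pass, and Mylk and Myl9, a myosin light chain kinase and a light chain of contractile cells, were lower in control FIPs (-0.82 and -0.79).

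Efhd1 encodes a mitochondrial EF-hand calcium sensor and showed the largest difference of the 10. Its values were 6.84, 6.78, 6.68, 6.57 and 6.59 in FIPs labelled transgenic, 6.85, 6.89, 6.86, 6.99 and 6.81 in control FIPs, 2.55, 2.04, 1.77, 1.79 and 1.60 in APCs labelled transgenic and 1.98, 2.57, 2.43, 2.73 and 3.15 in control APCs. The lowest FIP library thus stood more than 3 log2 units above the highest APC library, and the APC groups overlapped through their replicates 1. FIPs exceeded APCs 26.8-fold in mice labelled transgenic (4.74, SE 0.17, adjusted p = 4.345e-15) and 19.8-fold in controls (4.31, SE 0.17, adjusted p = 2.585e-14). Of 8 tested genes, its relative Efhd2 and the mitochondrial calcium uptake machinery, 5 were higher and 2 lower in FIPs of each genotype. Mcu, the pore of the mitochondrial calcium uniporter, was higher by 0.40 in control FIPs, Mcub, a dominant-negative pore subunit, by 1.09, and Slc8b1, the mitochondrial sodium and calcium exchanger, was lower (-0.54).

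Stmn4 encodes a stathmin, a family that sequesters tubulin, and is known from neurons. Its levels were 5.25, 4.89, 5.05, 4.83 and 4.79 in FIPs labelled transgenic, 5.46, 4.86, 4.88, 5.21 and 4.47 in control FIPs, 0.38, 0.62, 0.00, 0.52 and 0.45 in APCs labelled transgenic and 1.07, 1.04, 1.09, 0.61 and 0.65 in control APCs. In APCs it stood close to the lowest value the table gives: the libraries above 0 rested on an estimated 9 to 17 reads, and 1 library was listed at 0. The fitted differences were 4.57 (SE 0.17) in mice labelled transgenic and 4.08 (SE 0.17) in controls. Of 3 other stathmins only Stmn1, the ubiquitous member, passed, being higher by 0.77 in FIPs labelled transgenic and 0.70 in control FIPs. Because Opcml and Stmn4 are known from neurons, markers of nerve and Schwann cells were read beside them. None of 8 tested was higher in FIPs, and 6 were lower in control FIPs and 2 in FIPs labelled transgenic. Sox10, Snap25 and Elavl4 were at 0 in every FIP library, but Snap25 and Elavl4 were also at 0 in every APC library. The summed level of the 10 listed markers was 68.2 to 92.8 CPM in FIPs labelled transgenic and 64.5 to 83.8 CPM in control FIPs, against 97.4 to 115.4 CPM in APCs labelled transgenic and 90.6 to 152.9 CPM in control APCs. Outside this list the neurofilament gene Nefl went the other way. It averaged 4.23 in FIPs labelled transgenic and 4.51 in control FIPs, and was at 0 in all APC libraries. The part of nerve cells in the levels of Opcml and Stmn4 was not tested.

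Creb5 encodes a bZIP transcription factor of the ATF2 group. Its values were 8.16, 8.13, 8.11, 8.08 and 8.02 in FIPs labelled transgenic, 8.35, 8.10, 8.07, 8.21 and 8.01 in control FIPs, 7.11, 7.09, 7.06, 6.94 and 7.12 in APCs labelled transgenic and 7.06, 6.89, 6.81, 6.77 and 6.42 in control APCs. FIP labels were interleaved, and control APCs spread most. The FIP to APC difference was 1.04 (SE 0.08, adjusted p = 1.90e-09) in mice labelled transgenic and 1.36 (SE 0.08, adjusted p = 2.72e-11) in controls. Of 12 CREB and ATF relatives and coactivators tested, 1 was higher and 5 lower in FIPs labelled transgenic, and 1 was higher and 3 lower in control FIPs. Crem, a cyclic AMP response modulator, was the higher one (0.63 in FIPs labelled transgenic and 0.26 in control FIPs). Atf7, a close relative, and the coactivator Crtc2 were lower in control FIPs (-0.27 and -0.36).

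**Figure D2:**
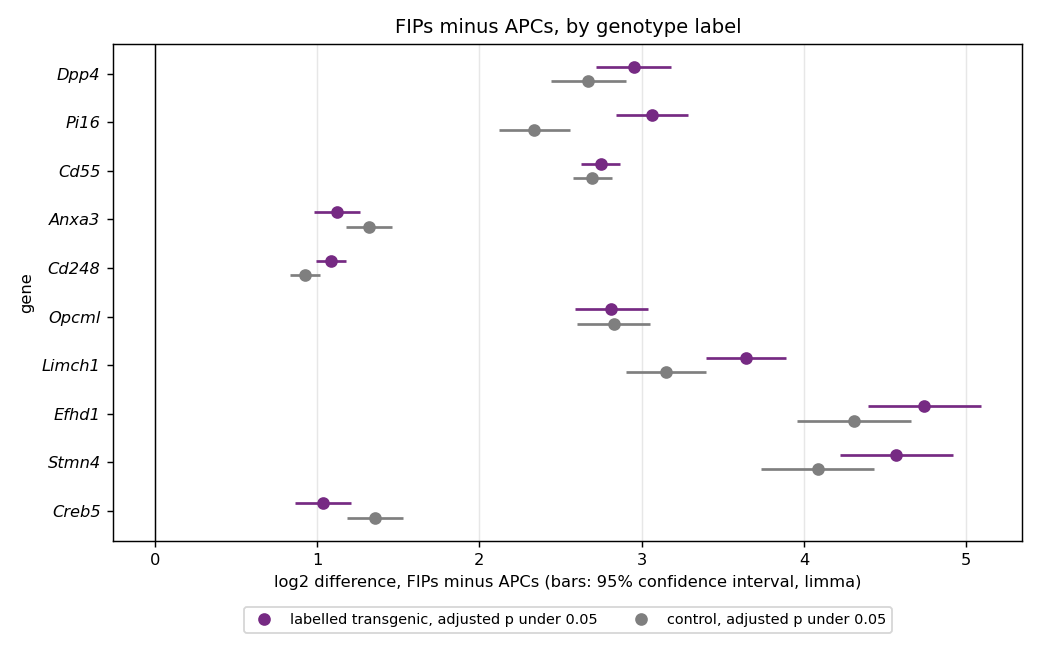
FIPs minus APCs for each gene (log2 units, horizontal axis), for mice labelled transgenic (upper point of each pair) and control mice (lower point), with the 95% confidence interval from limma. All 20 differences lie right of 0, between 0.93 for Cd248 in controls and 4.74 for Efhd1 in mice labelled transgenic.

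The 10 genes differed widely in abundance, which was compared per kilobase of annotated exon. Cd248 held rank 1 in all 4 groups, with 171 CPM per kb in FIPs labelled transgenic, 186 in control FIPs, 80.7 in APCs labelled transgenic and 98.0 in control APCs. Opcml held rank 10 in all 4, with 2.92, 3.34, 0.41 and 0.48 CPM per kb in the same groups. Cd55 and Anxa3 held ranks 2 and 3 in FIPs, at 97.65 and 59.6 CPM per kb in FIPs labelled transgenic, and in the APCs their order was exchanged, at 14.6 for Cd55 and 27.4 for Anxa3 in APCs labelled transgenic. Efhd1 stood at rank 4 in FIPs and rank 7 in APCs, and Creb5 moved as far the other way, at rank 9 in FIPs and rank 6 in APCs. Dpp4 and Pi16 stood side by side at 43.2 and 44.5 CPM per kb in FIPs labelled transgenic, with library ranges of 41.1 to 45.6 and 42.5 to 46.9 that overlap, and at 5.63 and 5.37 CPM per kb in APCs labelled transgenic. These ranks use the union of all annotated exons, which for Creb5 (25.02 kb) and Opcml (14.52 kb) may be longer than the transcripts the cells use.

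Other markers of interstitial progenitors and of committed preadipocytes set the 10 genes in context. These lists, too, were chosen with earlier results of these data known, so their counts are descriptive. Of 16 further interstitial progenitor markers, 14 were higher in FIPs labelled transgenic and 15 in control FIPs, and none was lower in either. The secreted factors Wnt2 and Sema3c and the signalling regulator Dact2 were higher by 4.37, 3.27 and 5.04 in control FIPs, and Pcolce2, which enhances procollagen processing, by 1.03. The median of these 16 was 0.54 in mice labelled transgenic and 0.65 in controls. Of 12 markers of committed preadipocytes, 10 were lower in FIPs of each genotype. Pparg, the master regulator of adipogenesis, was lower (-0.81 in FIPs labelled transgenic and -1.13 in control FIPs), as was Fabp4, a fatty acid carrier (-0.69 and -0.73). Dlk1, named after its value was seen because it alone went the other way, was higher in control FIPs (0.79, adjusted p = 0.04996). Of 6 genes of CD142-positive regulatory stromal cells, 2 were higher in FIPs labelled transgenic, and 1 was higher (Mgp, 0.45) and 1 lower (Fmo2, -0.44) in control FIPs. In control FIPs, markers of other cell types were lower too, with 10 of 10 mural, 9 of 10 endothelial, 9 of 10 mesothelial and 6 of 6 erythroid genes passing as lower, and 1 endothelial gene, Tek, as higher. Of 10 macrophage genes, 2 were lower. In FIPs labelled transgenic, 5 mural, 2 mesothelial, 3 erythroid and 1 macrophage gene were lower, and Tek and the mesothelial gene Wt1 were higher. Summed levels of mural genes were 405 to 435 CPM in control FIPs, against 751 to 1022 CPM in control APCs. Those of erythroid genes were 451 to 522 CPM against 805 to 1544 CPM. In the same groups the ranges overlapped for endothelial genes (565 to 727 CPM against 622 to 807.5 CPM) and mesothelial genes (199 to 283 CPM against 265 to 294 CPM). They also overlapped for macrophage genes (223 to 413 CPM against 294 to 485 CPM). The share of these cells in the differences of the 10 genes was not tested.

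The share of genes called higher depends on how libraries are scaled. With libraries centred on their medians, calls over all genes were 3185 higher and 4091 lower in FIPs labelled transgenic, in place of 3962 higher and 3313 lower, and 4178 higher and 3740 lower in control FIPs, in place of 3422 higher and 4866 lower. All 10 genes passed as higher under both scalings.

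Between genotypes, 7 of the 10 genes passed in APCs, 6 of them lower and 1 higher in APCs labelled transgenic, against 8.01% of all tested genes called in either direction (5.91% lower and 2.1% higher). Because the 10 were chosen with earlier results of these data known, the share over all genes is no test of them here either. The genes that fell were Pi16, Limch1, Efhd1, Dpp4, Cd248 and Cd55, and the gene that rose was Creb5. The median over the 10 was -0.345, beside -0.03 over all tested genes. The spread behind these values was wider in APCs than in FIPs, with a median SD over the 10 genes of 0.17 in APCs labelled transgenic and 0.25 in control APCs, and of 0.09 in FIPs labelled transgenic and 0.08 in control FIPs. When the 2 APC groups were fitted alone, without the FIP libraries that narrow the shared estimate of the spread, 0 of the 10 and 0 of all 17435 genes passed (limma), with an unadjusted p under 0.05 in 8 of the 10 and in 3602 of all genes (4444 in the fit of all libraries). The calls below therefore rest on the pooled spread.

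Pi16 showed the largest difference in APCs. It averaged 5.08 ± 0.25 in APCs labelled transgenic and 5.81 ± 0.27 in control APCs (SD, n = 5 each). The difference was -0.74 (SE 0.11, limma, adjusted p = 0.00196), or 0.60 of the control level. All 5 APC libraries labelled transgenic were below all 5 control libraries, 5.39 being the highest of the first and 5.45 the lowest of the second. Cd248 was the other gene without overlap, at 7.71 ± 0.09 in APCs labelled transgenic and 7.99 ± 0.07 in control APCs (SD, n = 5 each), with a difference of -0.28 (SE 0.04, adjusted p = 0.00298). Among all tested genes, 1.42% were lower without overlap. Pi16, Cd248 and Limch1 kept their call whichever single library was left out.

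Limch1 averaged 3.83 ± 0.26 in APCs labelled transgenic and 4.50 ± 0.28 in control APCs (SD, n = 5 each), a difference of -0.66 (SE 0.12, adjusted p = 0.00626). Efhd1 averaged 1.95 ± 0.37 in APCs labelled transgenic and 2.57 ± 0.43 in control APCs (SD, n = 5 each), a difference of -0.62 (SE 0.17, adjusted p = 0.0338), on an estimated 20 to 45 reads per APC library labelled transgenic and 30 to 68 per control APC library. Dpp4 averaged 5.14 ± 0.19 in APCs labelled transgenic and 5.55 ± 0.32 in control APCs (SD, n = 5 each), a difference of -0.41 (SE 0.11, adjusted p = 0.0338). Cd55 averaged 6.14 ± 0.10 in APCs labelled transgenic and 6.38 ± 0.15 in control APCs (SD, n = 5 each), a difference of -0.24 (SE 0.06, adjusted p = 0.0247). In each of these 4 genes the groups overlapped by 1 or more libraries. Cd55b, which shares some sequence with Cd55, was also lower, at a difference of -0.40 in APCs (adjusted p = 0.0257).

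Creb5 averaged 7.06 ± 0.07 in APCs labelled transgenic and 6.79 ± 0.23 in control APCs (SD, n = 5 each), a difference of 0.27 (SE 0.08, adjusted p = 0.0464). Replicate 1 of the control APCs, at 7.06, lay within the range of APCs labelled transgenic, and replicate 5, at 6.42, lay lowest. Of its relatives, Creb3l2 (0.18), Atf4 (0.17) and Crtc2 (0.23) also rose in APCs labelled transgenic, 3 of 12. Stmn4 had a difference of -0.50 (adjusted p = 0.0673), Anxa3 of 0.14 (adjusted p = 0.208) and Opcml of -0.18 (adjusted p = 0.301), none of which passed in the fit of all libraries. Stmn4 passed with libraries weighted by their quality (adjusted p = 0.0435).

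**Figure D3:**
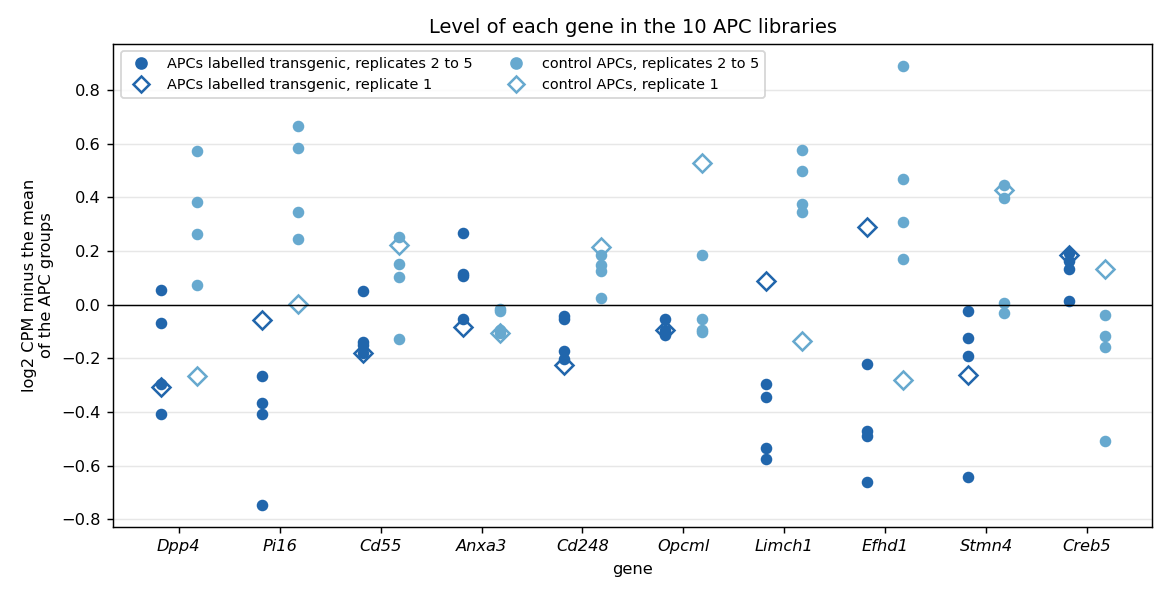
Level of each gene in the 10 APC libraries (log2 CPM minus the mean of the APC groups, vertical axis), with APCs labelled transgenic left of control APCs and both replicates 1 as open diamonds. Pi16 and Cd248 are the genes whose groups do not overlap among those that passed, while in Limch1 and Efhd1 the replicates 1 lie on the side of the other label.

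Single libraries bore on these calls. Without both replicates 1 of the APCs, a setting chosen after the data were seen, the same 7 genes passed, with Pi16 at -0.91, Efhd1 at -0.92, Limch1 at -0.89, Dpp4 at -0.50, Cd248 at -0.24, Cd55 at -0.20 and Creb5 at 0.33, and 3534 of all genes passed in place of 1396. These 2 libraries were left out for lying nearer the other label, so more calls over all genes follow in part from that choice. Whether their labels were exchanged was not tested. Cd248 (7.63 in the APC library labelled transgenic and 8.07 in the control) and Cd55 (6.08 and 6.48) lay on the side of their own label in both, while Limch1 and Efhd1 lay on the other. Leaving out 1 library at a time gave between 3 and 7 of the 10 genes, and between 181 and 2849 of all genes. The count was 3 (Pi16, Cd248 and Limch1) without replicate 2 or replicate 4 of the APCs labelled transgenic, and 4 (those and Cd55) without replicate 3, 4 or 5 of the control APCs. Without replicate 3 or 5 of the APCs labelled transgenic it was 5. Dpp4 lost its call in 5 of the 20 fits (adjusted p = 0.0701 to 0.0937), Cd55 in 2 (0.05495 to 0.0620), Efhd1 in 7 (0.0593 to 0.109) and Creb5 in 14 (0.0515 to 0.129), the last also without single FIP libraries. Centring libraries on their medians turned the split over all genes to 1376 higher and 823 lower, in place of 366 higher and 1030 lower, and under it 4 of the 10 genes passed, Pi16, Limch1, Efhd1 and Creb5.

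Genes of the sort itself moved in the same comparison. Ly6c1, Ly6c2 and Cd9, whose products the APC gate excludes, were lower in APCs labelled transgenic (-0.53, -0.53 and -0.65, adjusted p = 0.00161, 0.00231 and 0.00163), and Pdgfrb had a difference of 0.05 that did not pass. Ly6c2 averaged 3.05 in APCs labelled transgenic and 3.58 in control APCs, and 5.71 in FIPs labelled transgenic. Among marker genes, 6 of 6 erythroid, 7 of 10 macrophage, 3 of 10 mesothelial (Krt8, Lrrn4 and Gpm6a), 1 of 10 endothelial (Kdr) and 1 of 10 mural (Myh11) genes were lower, with summed erythroid levels of 454 to 1043 CPM in APCs labelled transgenic and 805 to 1544 CPM in control APCs. Summed macrophage levels were 186 to 316.5 CPM in APCs labelled transgenic and 294 to 485 CPM in control APCs. The part of the gate genes and of these cell types in the differences of the 10 genes was not tested. Of 12 committed preadipocyte markers, Cd36 and Adipoq were lower and Icam1 was higher. Of the 16 further interstitial progenitor markers, 1 passed in APCs: Sema3c, a secreted semaphorin, was lower (-0.58, adjusted p = 0.0149), and Bmp7 had -0.97 (adjusted p = 0.0679). Without both replicates 1 of the APCs, 4 of these 16 were lower, Bmp7 among them (-1.445, adjusted p = 0.00208), and 2 were higher. The 20 genes outside the 10 that are named here as called in APCs all kept their call and direction in that setting, with Ly6c1 at -0.60, Ly6c2 at -0.58 and Cd9 at -0.695. The libraries left out had been picked for lying nearer the other label, so the kept calls are not separate support. Among related genes, calls as lower went from 4 to 3 for complement regulators and from 1 to 0 for IgLON genes. They rose from 0 to 2 for the relatives and partners of CD248. For the DPP4, LIMCH1 and EFHD1 lists and the stathmins they rose from 0 to 1 each. More marker genes of other cell types passed as lower in that setting: 6 of 6 erythroid, 9 of 10 macrophage, 7 of 10 mesothelial, 5 of 10 endothelial and 5 of 10 mural.

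In FIPs, 0 of the 10 genes passed between genotypes (limma), against 0.373% of all tested genes. All 10 differences were below 0, between -0.20 for Opcml and -0.01 for Pi16, with a median of -0.13, beside 0.01 over all tested genes. Leaving out a single FIP library brought Pi16, Stmn4 and Creb5 to at most 0.006, 0.107 and 0.0025. An unadjusted p under 0.05 was reached by 2, Cd55 and Cd248, and by 10.6% of all tested genes. When the 2 FIP groups were fitted alone, 0 of the 10 and 36 of all genes passed (limma). In that fit an unadjusted p under 0.05 was reached by 5 of the 10 (Dpp4, Cd55, Cd248, Limch1 and Efhd1) and by 2290 of all genes. The spread was narrower in FIPs than in APCs, so the pooled spread widens the FIP intervals given here. Cd55 averaged 8.89 ± 0.04 in FIPs labelled transgenic and 9.07 ± 0.06 in control FIPs (SD, n = 5 each), a difference of -0.19 (95% interval -0.31 to -0.07, adjusted p = 0.193). Its groups did not overlap, 8.93 being the highest value in FIPs labelled transgenic and 8.99 the lowest in control FIPs, as in 0.694% of tested genes in this direction. With libraries weighted by their quality Cd55 passed (adjusted p = 0.0371), and its adjusted p ranged up to 0.41 over the other alternative settings. Cd55b had a difference of -0.32 (adjusted p = 0.183), with 5.37 ± 0.04 in FIPs labelled transgenic and 5.70 ± 0.07 in control FIPs (SD, n = 5 each). Cd248 differed by -0.12 (adjusted p = 0.3002), and Pi16 by -0.01 with an interval of -0.23 to 0.21. Of the further interstitial progenitor markers 0 of 16 passed in FIPs, and of the CD142 genes F3, which encodes CD142, was higher by 0.41 in FIPs labelled transgenic.

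**Figure D4:**
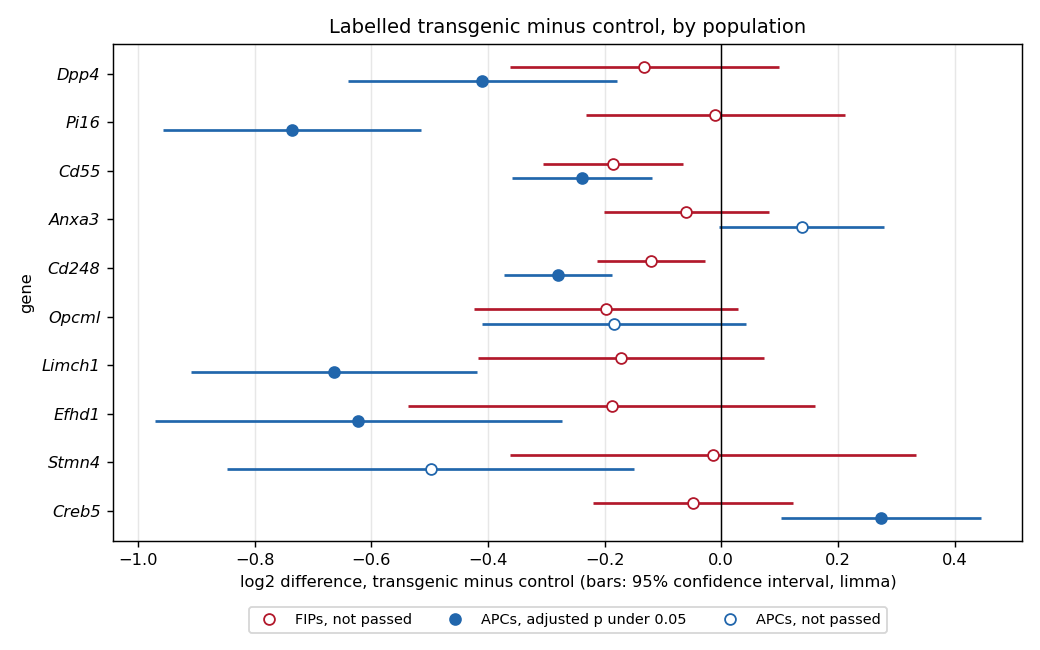
Labelled transgenic minus control for each gene (log2 units, horizontal axis), in FIPs (upper point of each pair) and APCs (lower point), with the 95% confidence interval from limma and filled points where the adjusted p was below 0.05. Filled points are found in APCs, 6 left of 0 and Creb5 right of 0, and all FIP points lie between -0.20 and -0.01.

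Whether the genotype difference itself differed between FIPs and APCs was tested as an interaction. None of the 10 genes passed, and of all tested genes 0% did (limma), with an unadjusted p under 0.05 in 4 of the 10 (Pi16, Cd248, Limch1 and Creb5) and in 2388 of all genes. The calls in APCs are thus not shown to differ from the lack of calls in FIPs. Pi16 came nearest, with an interaction of 0.73 (95% interval 0.41 to 1.04, adjusted p = 0.0845), followed by Limch1 at 0.49 (0.15 to 0.84), Creb5 at -0.32 (-0.56 to -0.08) and Cd248 at 0.16 (0.03 to 0.29). For Cd55 the interaction was 0.05 (-0.12 to 0.22) and for Opcml -0.01 (-0.33 to 0.31). Pi16 passed when libraries were weighted by their quality and with the pool number of a genotype as a random effect. It also passed without replicate 1 of the control APCs, and with Limch1 without replicate 1 of the APCs labelled transgenic. Without both, 4 passed, Pi16 at 0.90, Limch1 at 0.71, Efhd1 at 0.73 and Creb5 at -0.38, and over all genes 957 passed. The median interaction over all tested genes was 0.05 and moved to -0.06 when libraries were centred on their medians.

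The order in which the 10 genes followed one another over the 20 libraries was described by the root mean square difference between their centred log2 levels, which mostly carries the FIP to APC gap that all libraries share. Anxa3 and Creb5 were the nearest pair (0.157 log2 units), then Cd55 and Opcml (0.158) and Dpp4 and Pi16 (0.199), while Cd248 and Efhd1 were the farthest (1.79). Among 11777 other genes, the nearest to Dpp4 were Papln (0.196), Adamts6 (0.236) and Tmem158 (0.245), and the nearest to Pi16 were Adamts6 (0.225), Ly6c2 (0.231) and Cilp (0.232). Tmem100 was the nearest gene to both Cd55 (0.148) and Opcml (0.153), and Ackr2 stood at rank 3 for both. Sulf1 and Lrrc8c were among the 3 nearest to both Anxa3 and Creb5, at 0.0887 and 0.119 from Anxa3. Flnc, Pyroxd2 and Cd276 were nearest to Cd248 (0.0987 to 0.101), Ano3, Ackr1 and Ildr2 to Limch1 (0.200 to 0.214), Sfrp4, Tnfrsf11b and Wnt2 to Efhd1 (0.234 to 0.287), and Sema3d, Islr2 and Nefl to Stmn4 (0.33 to 0.354). Nefl, a neurofilament gene, averaged 4.23 in FIPs labelled transgenic and 4.51 in control FIPs, and was at 0 in all APC libraries.

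The 10 genes lie on 8 chromosomes, and their neighbours were mixed. The nearest measured gene on either side, picked by position after values had been seen, had a difference of less than 0.5 log2 units in size between control FIPs and control APCs in 12 of 20 cases. How often this holds over all tested genes was not computed, so the count says nothing particular about neighbours. Uchl1, a ubiquitin hydrolase gene 58.59 kb from Limch1, was higher by 2.57 in FIPs labelled transgenic and 2.45 in control FIPs. Igsf9b, 433.2 kb from Opcml, was higher by 1.46 and 1.01 in the same groups. Tmem151a, whose nearer annotated edge lies 0.177 kb from Cd248, was higher by 1.37 and 0.88 in the same groups. It was lower in APCs labelled transgenic than in control APCs (-0.65, adjusted p = 0.0423), as was Fras1 beside Anxa3 (-0.96). Gm15674, a predicted antisense gene whose annotated end lies 1.113 kb from Cd55, was higher by 4.52 in FIPs labelled transgenic and 3.54 in control FIPs, and was lower in APCs labelled transgenic than in control APCs (-0.998, adjusted p = 0.00898). It lies at chr1:130422824-130437914 on the plus strand. Its span overlaps the longer RefSeq model of Cd55 (chr1:130429798-130465009) and the span of Cd55b (chr1:130388537-130423009). It lies outside the span of Cd55 used here for exons and was not found to share exonic bases with it. The sources used here give no strand setting, so whether reads of Gm15674 and Cd55 were mixed cannot be told. Adra1a, beside Stmn4, and Tril, beside Creb5, went the other way in controls, at -1.67 and -0.58.

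**Figure D5:**
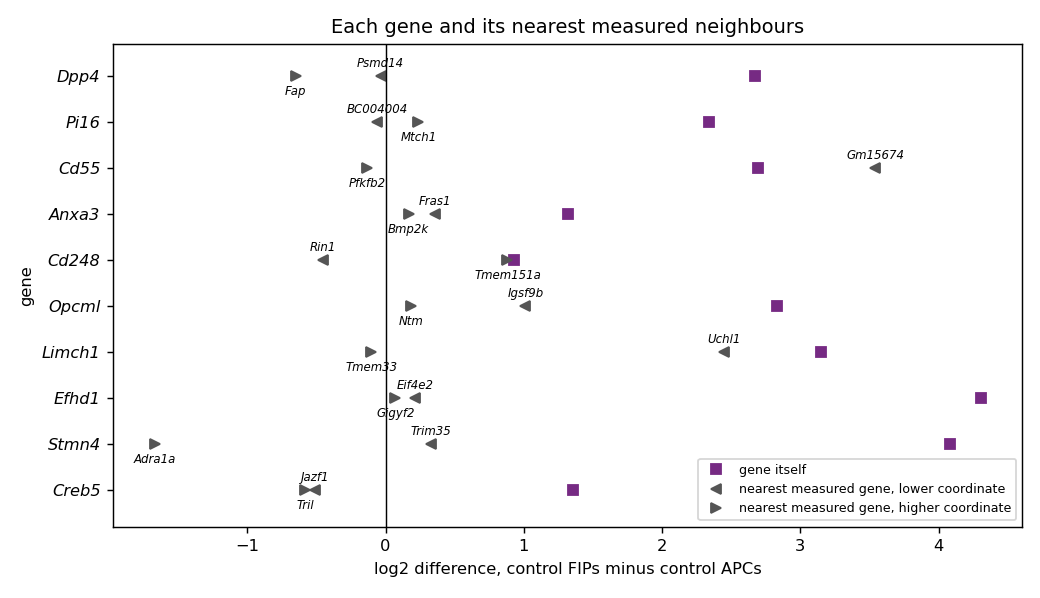
Control FIPs minus control APCs (log2 units, horizontal axis) for each of the 10 genes (squares) and the nearest measured gene at lower and higher coordinates (triangles). Squares lie between 0.93 and 4.31, and among the triangles only Gm15674 and Uchl1 exceed 2.

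Overlap with other annotated genes could affect few of these counts. Gm13561, antisense to Dpp4 over 232 exonic bases, was above 0 in 6 libraries and reached at most 1.42. The annotated antisense genes that share exonic bases with Pi16, Cd55 and Efhd1, of which Gm15674 is not one, were listed at 0 in all libraries. Of the 100-base stretches of Efhd1, 7.506% were shared with its antisense partner Efhd1os. Cd248 and Stmn4 shared no 100-base stretch with another annotated gene.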

How the data were processed

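Polyadenylated RNA of 20 pooled libraries was measured. The authors deposited log2 CPM, rounded to 2 decimals, in which anything up to 1 CPM is listed as 0. Per the submitters' processing notes, Trim Galore 0.4.1, HISAT2 2.0.1, featureCounts 1.4.6 and DESeq2 1.6.3 were used on GRCm38, with settings that the sources used here do not give. Between 72.02 and 80.06% of low values in a library gave whole reads (within 0.0051 log2 units), so no count test was run. Names and exons came from GENCODE on GRCm38 (54276 genes matched) and promoters from RefSeq. Genes above 0 in at least 5 libraries were fitted in limma 3.58.1 (R 4.3.3) with 1 mean per group (16 residual degrees of freedom) and a trend of variance on level. P-values were adjusted over all genes by Benjamini-Hochberg, with a threshold of 0.05, and the procedure was tested on simulated data. No label says the pools are independent cultures or litters, so p-values measure the spread between pools. Within a genotype, the deviations of same-numbered FIP and APC libraries correlated weakly but always above 0. The correlations were 0.06 to 0.33 in mice labelled transgenic and 0.04 to 0.27 in controls, and for some libraries another number correlated more closely. Because no label ties numbers to mice, the main fit left them out, and they entered as a random effect in an alternative (correlation 0.16).

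The 10 genes and all lists (10 of related genes, 9 of cell markers) were chosen with earlier results of these data known. Text names all 10 genes, Zfp423 and gate genes, up to 6 related genes per list by mean level, up to 4 markers per list by adjusted p and the 3 nearest genes per member. Other genes were named after their values were seen. Alternatives were other pseudocounts, filters, scalings, variance models, a replicate block, pools as a random effect, only the groups compared and each library left out.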

Additional observations from a re-analysis of the deposited data

Results flagged for a closer look

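Of 40 sets of 5 libraries checked (10 genes in 4 groups), 2 held a library far from the other 4, where chance alone gives about 1 in 20. Cd55 in replicate 5 of the APCs labelled transgenic stood at 6.31, and the other 4 lay between 6.08 and 6.12. Limch1 in replicate 4 of the control FIPs stood at 7.80, and the other 4 lay between 7.58 and 7.63.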

How the results depend on the processing

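All 10 genes stayed higher in FIPs than in APCs, and past the threshold, in both genotypes under every setting run. Between genotypes in APCs, 7 of 10 passed in the fit of all libraries. The count was 4 with no filter, with libraries centred on their medians, with quantile normalization and with no variance trend, 8 with array weights, Stmn4 being gained, 0 with only the groups compared, and 3 to 7 with 1 library left out. With the replicate block it was 6, Efhd1 being lost, and 1057 of all genes passed in place of 1396; the block changed no other call of the 10 genes. Opcml in APCs turned to 0.0078 under quantile normalization. In FIPs 0 passed and 1 with array weights, and 0 in each fit with 1 library left out. With 1 library left out the FIP values ranged between -0.029 and 0.006 for Pi16, -0.1405 and 0.107 for Stmn4, and -0.0825 and 0.0025 for Creb5. For the interaction 0 passed, 1 with array weights, 1 with pools as a random effect, 0 to 2 with 1 library left out (0 to 331 of all genes), and 4 without both replicates 1 of the APCs, a setting chosen after seeing the data. The interaction of Cd55 turned to -0.064 with centred libraries, and that of Opcml ranged between -0.1225 and 0.04 with 1 library left out and was -0.123 without both replicates 1. Over all genes, calls between genotypes in APCs were 1088 with 1 added before the logarithm, 823 with 0.1, 812 with no filter, 722 with no trend, 2199 centred and 2253 with array weights, and in FIPs 65 became 9 to 125 with 1 library left out. Causes were not tested. Depth limits Stmn4 in APCs most, at 9 to 17 reads a library above 0.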
